A study of Mus musculus with 12 samples.

Results

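The genes described here are 10 genes known for their behaviour in injured and regrowing neurons: Atf3, Jun, Klf6, Sox11, Sprr1a, Gap43, Gal, Gadd45a, Stmn2 and Stmn4. They were chosen by symbol, with earlier results of these data known. Each matched 1 row in both deposited tables of 56953 genes. All 10 were among the 19278 genes that passed a filter on low counts. Their messenger RNA was measured by bulk sequencing of whole mouse spinal cords in 4 groups of 3 animals: cords labelled cKO and control cords at 4 weeks after tamoxifen, and cords labelled cKO and control cords at 4.5 weeks after tamoxifen. The cKO mice carried Ddx20flox/flox alleles and the Plp-CreER transgene, in which the Plp promoter restricts a tamoxifen-activated Cre to Plp-expressing cells, chiefly oligodendrocytes. The labels do not say which of these alleles the controls carried, and they give no age. Deletion was directed at glia, while most of the genes below are best known from neurons, and in whole-cord RNA the cell that made a transcript was not resolved. Fewer cells of a type and less RNA per cell cannot be told apart.

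When an axon is cut or crushed, the cell body switches on a set of transcription factors, among them Atf3, Jun, Klf6 and Sox11, that in turn raise growth-associated proteins, neuropeptides and stress genes. The response is strong in peripheral sensory and motor neurons and weak in most central neurons. Several of its genes are not private to neurons: Atf3, Jun and Klf6 also respond to stress and inflammation in many cell types, and Gadd45a is a classical DNA damage gene and p53 target. Stmn2 and Stmn4 encode stathmins, which bind tubulin dimers and regulate microtubule growth, and Gap43 encodes a membrane protein of growth cones.

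Libraries held 33104560 to 47677267 estimated counts. Levels are CPM, a gene's counts relative to its library's total, scaled by the trimmed mean of M values (TMM). Log2 fold changes are cKO over control with a standard error (SE). Each adjusted p comes from edgeR's quasi-likelihood test with Benjamini-Hochberg adjustment over all genes tested, a gene being called below 0.05. Transcript of the targeted gene, Ddx20, was not lower: it held 10.2, 11.1 and 9.90 CPM in cords labelled cKO, against 11.01, 9.78 and 11.1 CPM in controls at 4 weeks. At 4.5 weeks it held 12.4, 11.1 and 13.3 CPM in cords labelled cKO, against 9.16, 10.6 and 9.71 CPM in controls. The exact two-sided permutation p was 0.9 at 4 weeks and 0.1, the smallest possible, at 4.5 weeks. In the fit over all genes it was called higher at 4.5 weeks (log2 fold change 0.33, adjusted p 0.013). Gene-level counts do not resolve single exons, so the loss of an exon was not tested. The X-inactivation transcript Xist exceeded 1000 counts in 2 of 3 cords labelled cKO and 0 of 3 controls at 4 weeks, and in all 3 of each at 4.5 weeks, so sex, which the labels do not give, was unbalanced at 4 weeks. By Xist, sex and time coincide among the controls, so their parts in a difference between the control groups cannot be told apart. The difference of the cKO effects draws on those groups too. Time and deposited table also coincide, so a difference between times cannot be told apart from a difference between the sets of libraries. Control library 1 of 4.5 weeks stood apart in carrying transcripts of sensory ganglia and nerve: the 11 listed ganglion neuron markers summed to 134 CPM there, against 12.6 and 14.4 CPM in the other controls of that time, and the 7 Schwann cell markers to 288 CPM, against 44.5 and 43.4 CPM. At 4 weeks the Schwann cell markers summed to 60.5, 72.6 and 27.6 CPM in cords labelled cKO, against 101, 188 and 112 CPM in controls. Of these 7 markers 3 were called lower and 0 higher at that time, when 17.2% of all genes were called lower. The part of nerve tissue in the results for the 10 genes was not tested. Control library 2 of 4.5 weeks stood apart in skeletal muscle transcripts, its 5 markers summing to 127 CPM, against 3.54 and 12.4 CPM in control libraries 1 and 3.

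At 4 weeks 5 of the 10 genes were higher in cords labelled cKO (Atf3, Gadd45a, Jun, Klf6 and Sox11), 1 was lower (Stmn4), and Sprr1a, Gap43, Gal and Stmn2 were not called. Of all genes tested 20.1% were called higher and 17.2% lower (37.2% in all). At 4.5 weeks all 10 were called, 8 higher and 2 (Stmn2 and Stmn4) lower, when 33.3% of all genes were called higher and 32.6% lower (65.9% in all), so that a call by itself was common at this time. All 3 cords labelled cKO fell beyond the span of their 3 controls for 5 of the 10 genes at 4 weeks, 4 above and 1 below, and for all 10 at 4.5 weeks, 8 above and 2 below. Over all genes tested 47.2% did so at 4 weeks (24.1% above) and 72.3% at 4.5 weeks (36.8% above). The effect differed between the times for 6 of the 10 genes, and for 40.7% of all genes. The median log2 fold change of the 10 genes was 0.48 at 4 weeks, against 0.0072 over all genes tested, and 1.10 at 4.5 weeks, against 0.021. With libraries scaled by their totals alone, 69.1% of the genes called at 4 weeks were higher, against 53.9% with TMM, and none of the 10 genes changed direction.

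**Figure D1:**
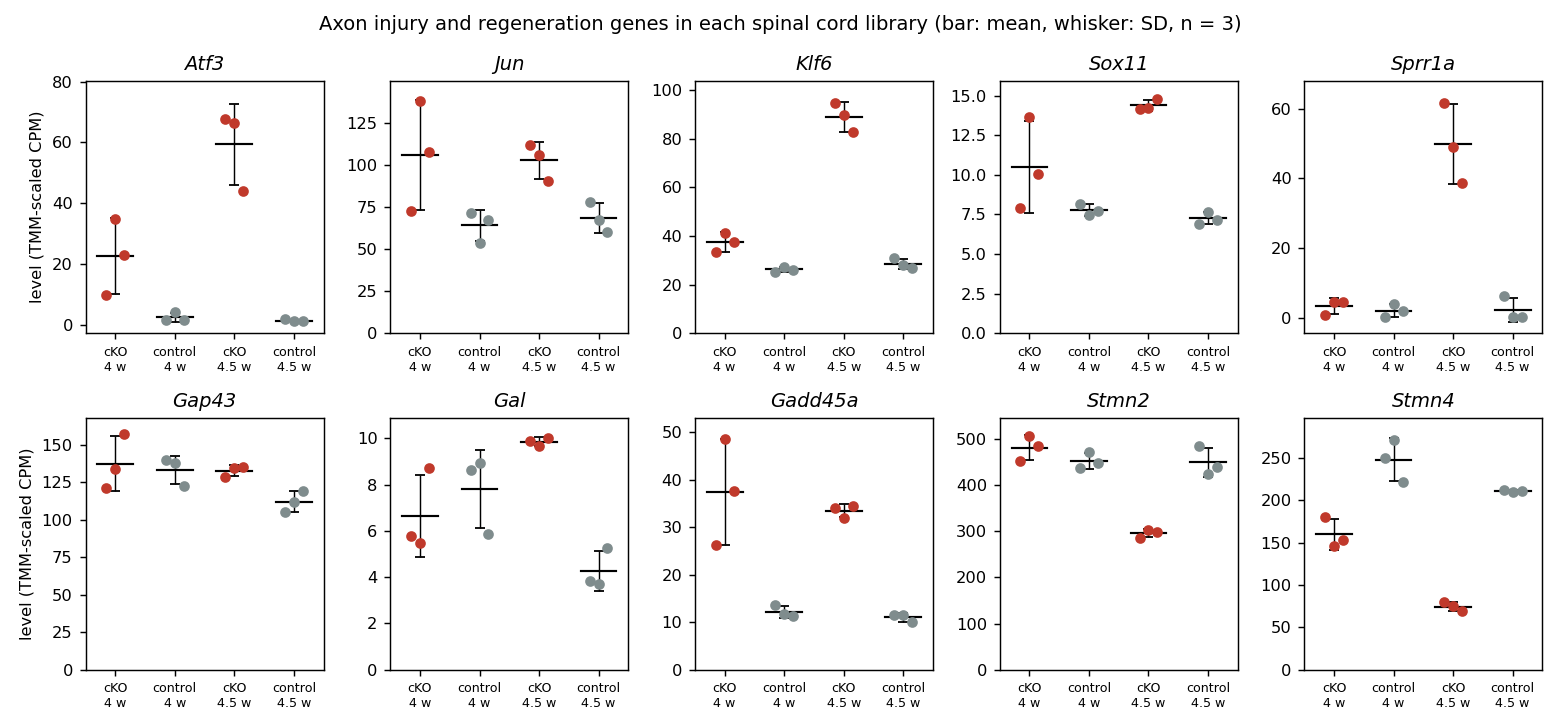
Level of each gene in TMM-scaled CPM (vertical axes, linear) in cords labelled cKO (red) and controls (grey) at both times; each point is 1 library, the bar the mean and the whisker the SD of 3. At 4.5 weeks the 3 cords labelled cKO lie outside the range of the controls in every panel, while at 4 weeks Sox11, Sprr1a, Gap43, Gal and Stmn2 overlap.

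The transcription factor Atf3 (ENSMUSG00000026628.14), a basic leucine zipper protein that is nearly silent in resting neurons, gave the largest fold change of the 10 genes at 4 weeks, and at 4.5 weeks in the fit to all libraries. Sprr1a exceeded it at 4.5 weeks with limma-voom (log2 fold change 5.87, against 5.47 for Atf3), without control library 1 (7.29, against 5.67) and without control libraries 1 and 2 (7.63, against 5.74). At 4 weeks Atf3 held 9.72, 34.7 and 23.1 CPM in cords labelled cKO, against 1.46, 4.15 and 1.48 CPM in controls. The cords labelled cKO all lay above the controls but differed from each other by more than 3-fold, and control library 2 stood above the other controls. The log2 fold change was 3.29 ± 0.47 (SE, n = 3 each, adjusted p 0.00016). At 4.5 weeks Atf3 held 67.8, 66.4 and 43.9 CPM in cords labelled cKO, against 1.68, 1.22 and 1.10 CPM in controls, a wide separation with no overlap (5.48 ± 0.51, adjusted p 7.5e-07). The effect was larger at 4.5 than at 4 weeks by 2.19 ± 0.67 on the log2 scale (adjusted p 0.02), a difference that was no longer called without control library 2 of 4 weeks (1.54, adjusted p 0.088) or without control library 3 of 4.5 weeks (2.06, adjusted p 0.052). It was also not called with limma-voom (adjusted p 0.12), with a term for sex (adjusted p 0.07) or without both control libraries 1 and 2 of 4.5 weeks (adjusted p 0.073).

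Jun (ENSMUSG00000052684.5), the AP-1 subunit with which Atf3 can dimerise, was higher at both times, by less than Atf3. It held 72.4, 138 and 107 CPM in cords labelled cKO, against 71.4, 53.6 and 67.0 CPM in controls at 4 weeks. Library 1 of the cords labelled cKO lay barely above the highest control there, and the other 2 well above it (log2 fold change 0.72 ± 0.19, adjusted p 0.01; 0.74 with a term for sex, adjusted p 0.066). At 4.5 weeks Jun held 112, 106 and 90.2 CPM in cords labelled cKO, against 77.9, 67.2 and 59.9 CPM in controls, without overlap (0.59 ± 0.19, adjusted p 0.015). Leaving out control library 3 (0.50, adjusted p 0.065) or cKO library 1 (0.52, adjusted p 0.055) of 4.5 weeks ended that call. The difference between the times was -0.14 ± 0.27 (adjusted p 0.72).

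Klf6 (ENSMUSG00000000078.8), a Krüppel-like zinc finger factor that promotes axon growth in fish and mammalian neurons, was higher at both times. It held 33.3, 41.4 and 37.6 CPM in cords labelled cKO, against 25.3, 27.1 and 26.1 CPM in controls at 4 weeks, and the groups did not overlap (log2 fold change 0.52 ± 0.086, adjusted p 0.00055). Later, at 4.5 weeks, its level was 95.0, 90.0 and 82.7 CPM in cords labelled cKO, against 30.9, 28.2 and 26.7 CPM in controls (1.64 ± 0.086, adjusted p 5.1e-09). The lowest cord labelled cKO at 4.5 weeks, at 82.7 CPM, stood far above the 9 libraries of the other groups, none of which exceeded 41.4 CPM. The effect at 4.5 weeks exceeded that at 4 weeks by 1.13 ± 0.12 (adjusted p 1.3e-05).

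Sox11 (ENSMUSG00000063632.7), a SoxC factor of immature neurons that is expressed again after nerve injury, was low in all cords. At 4 weeks it held 7.88, 13.6 and 10.1 CPM in cords labelled cKO, against 8.19, 7.45 and 7.73 CPM in controls. Library 1 of the cords labelled cKO lay inside the control range, and the call was marginal (log2 fold change 0.44 ± 0.16, adjusted p 0.045), being lost under 16 of 23 alternative settings. These included 11 of the 12 in which 1 library was left out, every one but cKO library 1 of 4 weeks (adjusted p 0.053 to 0.24), and the log2 fold change was 0.20 without cKO library 2. At 4.5 weeks the values were close together within each group and far apart between them, at 14.2, 14.3 and 14.8 CPM in cords labelled cKO, against 6.93, 7.68 and 7.16 CPM in controls (0.99 ± 0.16, adjusted p 1e-04). The difference between the times was 0.55 ± 0.22 (adjusted p 0.064), and it was called without cKO library 2 of 4 weeks (0.78, adjusted p 0.0025).

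**Figure D2:**
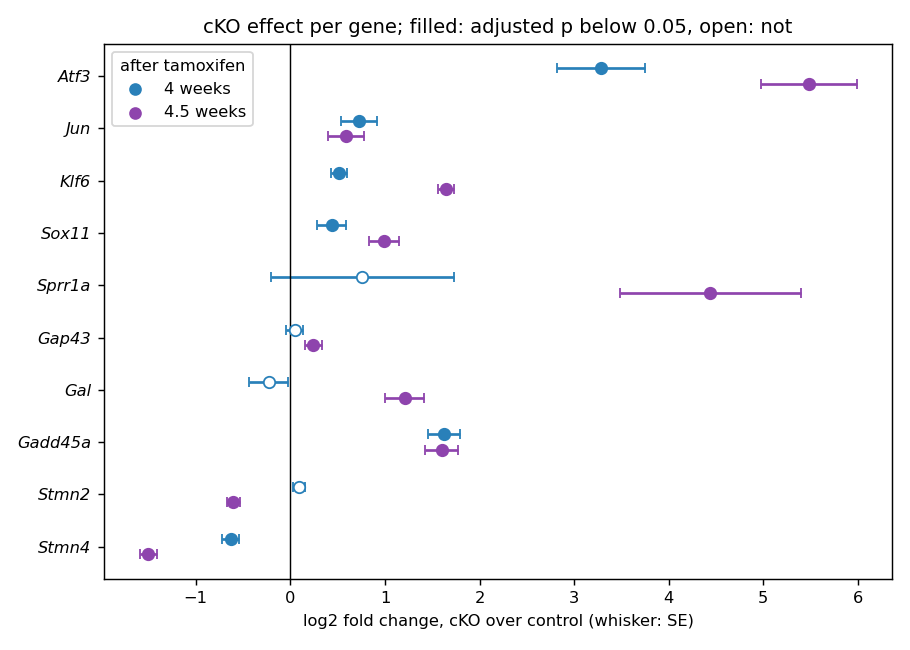
Log2 fold change, cKO over control (horizontal axis), of each gene at 4 weeks (blue) and 4.5 weeks (purple) with its SE; filled points passed an adjusted p of 0.05 in edgeR. Atf3 and Sprr1a reach 5.48 and 4.44 at 4.5 weeks, Jun and Gadd45a lie at about the same place at both times, and Stmn2 and Stmn4 lie below 0 at 4.5 weeks.

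Atf3 and Jun bind DNA as dimers of AP-1 or ATF/CREB type, so the stretches before the start sites of these genes were read for such words. RefSeq promoter sequences (build GRCm38.p6, whereas the submitters' processing notes name mm39) were at hand for 7 of the 10 genes: Atf3, Jun, Klf6, Sox11, Sprr1a, Gal and Gadd45a. In the 250 bases before the start, on either strand, the ATF/CRE word TGACNTCA stood in 4 of the 7 (Jun, Klf6, Sox11 and Sprr1a), against 7.49% of 32851 mouse promoters. The AP-1 word TGANTCA stood in 1, Sprr1a, at 2 places (6.75% of promoters), and the C/EBP-ATF word TGATGNAA in 1, Atf3 (3.45%). The matches of different words did not overlap, and a match is a stretch of letters, not a measured site. The 5 promoters with a match are shown 5′ to 3′ on the gene's strand, the last base being the one before the start, with matches in capitals and, in Sprr1a only, the TATA box word TATAAA as well (12.4% of promoters).
Sprr1a, chr3:92485882-92486131, minus strand: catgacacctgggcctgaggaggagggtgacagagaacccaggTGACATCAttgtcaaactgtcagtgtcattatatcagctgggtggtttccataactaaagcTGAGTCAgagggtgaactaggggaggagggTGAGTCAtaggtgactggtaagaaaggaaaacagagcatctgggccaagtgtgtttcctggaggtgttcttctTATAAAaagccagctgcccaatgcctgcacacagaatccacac
Jun, chr4:95052223-95052472, minus strand: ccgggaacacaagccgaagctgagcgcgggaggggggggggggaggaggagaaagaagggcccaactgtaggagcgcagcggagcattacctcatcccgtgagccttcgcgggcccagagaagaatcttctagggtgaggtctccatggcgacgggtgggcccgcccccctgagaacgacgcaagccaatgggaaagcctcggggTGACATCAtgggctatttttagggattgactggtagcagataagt
Klf6, chr13:5861239-5861488, plus strand: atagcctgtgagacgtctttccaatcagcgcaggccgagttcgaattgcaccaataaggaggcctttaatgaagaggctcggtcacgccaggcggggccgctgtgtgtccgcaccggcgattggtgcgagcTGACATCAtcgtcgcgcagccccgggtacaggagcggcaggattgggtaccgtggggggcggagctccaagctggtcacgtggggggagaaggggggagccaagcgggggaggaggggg
Sox11, chr12:27342719-27342968, minus strand: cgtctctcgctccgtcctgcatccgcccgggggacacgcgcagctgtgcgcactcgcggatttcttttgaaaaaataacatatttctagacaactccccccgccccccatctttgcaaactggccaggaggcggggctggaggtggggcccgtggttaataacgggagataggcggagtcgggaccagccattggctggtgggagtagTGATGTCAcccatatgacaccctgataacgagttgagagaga
Atf3, chr1:191183334-191183583, minus strand: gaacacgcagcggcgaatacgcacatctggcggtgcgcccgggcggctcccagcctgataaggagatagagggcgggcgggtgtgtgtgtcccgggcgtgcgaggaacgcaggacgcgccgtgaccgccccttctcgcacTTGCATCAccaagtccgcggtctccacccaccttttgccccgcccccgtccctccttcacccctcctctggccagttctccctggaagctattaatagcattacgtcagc
The Sprr1a promoter held both AP-1 matches between 146 and 110 bases before the start and an ATF/CRE match 207 to 200 bases before it. In Jun the ATF/CRE match lay 45 to 38 bases before the start and in Sox11 42 to 35 bases before it. The same letters, TGACATCA, made the match in Jun, Klf6 and Sprr1a, and in Sox11 they stood on the other strand, printed as TGATGTCA. Gal and Gadd45a held none of these words in the window.

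Sprr1a (ENSMUSG00000050359.8), a small proline-rich protein of the skin barrier that sensory neurons make after axotomy, had the largest difference between the times of the 10 genes on the log2 scale. At 4 weeks it held 0.975, 4.74 and 4.74 CPM in cords labelled cKO, against 0.296, 4.12 and 1.97 CPM in controls, and the groups overlapped (log2 fold change 0.76 ± 0.97, adjusted p 0.58). At 4.5 weeks Sprr1a held 61.5, 49.1 and 38.6 CPM in cords labelled cKO, from 2477, 1793 and 1377 counts, against 6.30, 0.389 and 0.246 CPM in controls, from 251, 15 and 11 counts. Every cord labelled cKO lay far above every control, and control library 1 lay far above the other controls. The log2 fold change was 4.44 ± 0.96 (adjusted p 0.0012), and 7.29 without control library 1 (adjusted p 2.4e-05). The difference between the times, 3.68 ± 1.3, was called (adjusted p 0.043), but not under 11 of 22 alternatives, including 9 of the 12 in which 1 library was left out (adjusted p 0.055 to 0.17), all but control library 1 and cKO library 2 of 4 weeks and control library 1 of 4.5 weeks.

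Control library 1 of 4.5 weeks, the highest control for Sprr1a, was also the one with ganglion and nerve transcripts. Sensory neuron markers differed among themselves: the actin-binding protein gene Avil held 11.5, 13.1 and 10.1 CPM in cords labelled cKO at 4.5 weeks, against 36.1, 0.259 and 0.627 CPM in controls. The nociceptor sodium channel gene Scn10a held at most 0.219 CPM in those cords labelled cKO, against 27.2 CPM in control library 1. At 4 weeks Avil held 15.5, 23.5 and 21.3 CPM in cords labelled cKO, against 0.321, 0.338 and 0.742 CPM in controls. Scn10a then held at most 0.177 CPM in cords labelled cKO, against at most 0.384 CPM in controls. Of the 11 ganglion neuron markers, 6 were tested, 2 of them called higher and 0 lower at 4 weeks, and 0 higher and 4 lower at 4.5 weeks. Of all genes tested 20.1% were called higher and 17.2% lower at 4 weeks, and 33.3% and 32.6% at 4.5 weeks. The 11 markers summed to 18.8 to 21.6 CPM in cords labelled cKO at 4.5 weeks. In controls their sum was 134 CPM in library 1, and 12.6 and 14.4 CPM, below every cord labelled cKO, in libraries 2 and 3. The Schwann cell markers summed to 52.4 to 58.7 CPM in cords labelled cKO, against 43.4 to 288 CPM in controls. The part of ganglion and nerve tissue in the Sprr1a levels was not tested.

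Gal (ENSMUSG00000024907.8) encodes galanin, a neuropeptide that injured sensory and motor neurons raise. At 4 weeks it held 5.79, 5.47 and 8.69 CPM in cords labelled cKO, against 8.61, 8.92 and 5.88 CPM in controls, and the groups overlapped (log2 fold change -0.23 ± 0.21, adjusted p 0.42). At the later time Gal held 9.88, 9.66 and 10.02 CPM in cords labelled cKO, against 3.84, 3.68 and 5.26 CPM in controls, without overlap (1.21 ± 0.21, adjusted p 0.00022). The controls themselves differed, Gal being the 1 gene of the 10 called between the control groups (9.53% of all genes were called higher and 7.21% lower at 4.5 weeks). Those of 4.5 weeks all lay below those of 4 weeks (log2 fold change, 4.5 over 4 weeks, -0.87 ± 0.21, adjusted p 0.015). That call ended without control library 1 or 2 of 4 weeks (adjusted p 0.07 and 0.071), without control library 2 of 4.5 weeks (adjusted p 0.07) and with a term for sex (-0.24, adjusted p 0.84). The lowest cord labelled cKO at 4.5 weeks, at 9.66 CPM, lay close to the highest control of 4 weeks, at 8.92 CPM. The difference between the effects at the 2 times was 1.44 ± 0.29 (adjusted p 0.0018), and it was called under all 22 alternatives.

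Of the galanin receptor genes, Galr3 was higher in cords labelled cKO at both times, at 1.40, 1.41 and 1.86 CPM, against 0.222, 0.185 and 0.179 CPM in controls at 4 weeks (log2 fold change 2.97 ± 0.36, adjusted p 4.7e-05), and by 1.57 ± 0.35 at 4.5 weeks (adjusted p 0.0015). Galr1 was not called at 4 weeks and lower at 4.5 weeks, at 0.745, 1.34 and 1.46 CPM in cords labelled cKO, against 2.01, 2.49 and 2.35 CPM in controls (-0.95 ± 0.26, adjusted p 0.006). Galr2 held less than 0.4 CPM in every library and was not tested, as were the listed relatives of Sprr1a.

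Gadd45a (ENSMUSG00000036390.9), which is raised by DNA damage through p53 and in axotomised neurons, was higher by a similar fold at both times. It held 26.2, 48.5 and 37.7 CPM in cords labelled cKO, against 13.5, 11.6 and 11.4 CPM in controls at 4 weeks (log2 fold change 1.62 ± 0.17, adjusted p 1.7e-05). At 4.5 weeks Gadd45a held 34.1, 31.9 and 34.4 CPM in cords labelled cKO, against 11.6, 11.5 and 10.01 CPM in controls (1.60 ± 0.17, adjusted p 3.1e-06). The groups did not overlap at either time, the cords labelled cKO were more alike at the later time, and the difference between the effects was -0.021 ± 0.24 (adjusted p 0.95). Its relatives Gadd45b and Gadd45g rose at 4 weeks by 1.12 ± 0.21 and 1.09 ± 0.20 (adjusted p 0.0013 and 0.001), and at 4.5 weeks Gadd45b rose by 0.84 ± 0.21 (adjusted p 0.0033), while Gadd45g was not called (0.46 ± 0.20, adjusted p 0.063).

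Other p53 targets, listed with earlier results of these data known, moved in the same libraries. All 14 listed targets were higher at 4 weeks, with a median log2 fold change of 2.56, and 13 were higher and 1, Zmat3, lower at 4.5 weeks, with a median of 2.16, when 20.1% and 33.3% of all genes were called higher. Gtse1, a p53-binding protein of the late cell cycle, changed by 5.33 ± 0.14 at 4 weeks (adjusted p 6.1e-10) and 4.43 ± 0.14 at 4.5 weeks (adjusted p 1.1e-10). For this list the differences between times that were called, 7 of 14, were all towards a lower value at 4.5 weeks. Of all genes tested 40.7% differed between the times, and 21.9% of all genes tested did so towards a lower value. The integrated stress response, of which Atf3 is a known target, was divided. Of its 14 listed genes, some of which (Atf5 and Cebpb among them) also stand in the AP-1, ATF and CEBP list, 6 were higher and 3 lower at 4 weeks, with a median of 0.29, and 7 were higher and 4 lower at 4.5 weeks, with a median of 0.50. The list's share of calls was 64.3%, against 37.2% of all genes, and 78.6%, against 65.9%. Atf5, a stress-induced relative of Atf4, rose by 1.44 ± 0.083 at 4 weeks (adjusted p 1.1e-07), whereas Psat1 and Phgdh, of serine synthesis, fell by 1.11 and 0.73 (adjusted p 1.3e-06 and 0.00013).

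Of the growth cone genes, Gap43 (ENSMUSG00000047261.10) held 121, 134 and 158 CPM in cords labelled cKO, against 139.9, 138 and 123 CPM in controls at 4 weeks, with overlap (log2 fold change 0.044 ± 0.087, adjusted p 0.73). At 4.5 weeks Gap43 held 128, 135 and 136 CPM in cords labelled cKO, against 106, 112 and 119 CPM in controls (0.24 ± 0.087, adjusted p 0.026). The groups did not overlap, but the call ended on removal of control library 1 (0.20, adjusted p 0.099) or 2 (adjusted p 0.064) or cKO library 2 (adjusted p 0.069) or 3 (adjusted p 0.07) of that time. The difference between the times was not called (0.20 ± 0.12, adjusted p 0.23) except without cKO library 3 of 4 weeks (0.30, adjusted p 0.038).

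Stmn2 (ENSMUSG00000027500.11), the neuronal stathmin also called SCG10, was not called at 4 weeks and was lower at 4.5 weeks. It held 452, 507 and 484 CPM in cords labelled cKO, against 437, 472 and 447 CPM in controls at 4 weeks, with overlap (log2 fold change 0.090 ± 0.066, adjusted p 0.31). At 4.5 weeks Stmn2 held 286, 303 and 299 CPM in cords labelled cKO, against 485, 425 and 438 CPM in controls, with every cord labelled cKO well below every control (-0.60 ± 0.066, adjusted p 3.6e-06). The difference between the times was -0.69 ± 0.093 (adjusted p 7.5e-05).

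Stmn4 (ENSMUSG00000022044.15), another stathmin, was the only one of the 10 that was lower at both times. It held 180.4, 146 and 153 CPM in cords labelled cKO, against 250.2, 272 and 221 CPM in controls at 4 weeks (log2 fold change -0.63 ± 0.089, adjusted p 0.00015). At 4.5 weeks it held 79.4, 74.7 and 69.3 CPM in cords labelled cKO, against 212, 209 and 211 CPM in controls (-1.50 ± 0.091, adjusted p 1.7e-08). The groups were apart at both times, and the fall deepened by 0.87 ± 0.13 on the log2 scale (adjusted p 0.00013).

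Markers of spinal neurons fell in the same libraries. The 13 listed neuron markers, among them Snap25, Syt1, Rbfox3 and the neurofilament genes, summed to a mean of 10326 CPM in cords labelled cKO, against 12198 CPM in controls at 4 weeks, and to 3669 CPM, against 14443 CPM, at 4.5 weeks. The later ratio was 0.254, where the fitted fold was 0.353 for Stmn4 and 0.659 for Stmn2. All 13 were called lower at 4.5 weeks and 5 at 4 weeks, as were 7 and 1 of 7 motor neuron markers, when 32.6% and 17.2% of all genes were. The motor neuron markers summed to 359 to 412 CPM in cords labelled cKO, against 318 to 378 CPM in controls at 4 weeks, with overlap. At 4.5 weeks they summed to 129 to 195 CPM in cords labelled cKO, against 407 to 537 CPM in controls. Per 1000 CPM of the 13 neuron markers Stmn2 held 80.0 to 81.9 CPM in cords labelled cKO, against 29.9 to 33.4 CPM in controls at 4.5 weeks. On the same scale Gap43 held 35.6 to 37.2 CPM in cords labelled cKO, against 7.27 to 8.11 CPM in controls, and Stmn4 19.0 to 22.2 CPM, against 14.4 to 14.8 CPM. At 4 weeks this ratio ran the other way for Stmn4, at 13.8 to 17.1 CPM in cords labelled cKO, against 16.9 to 22.3 CPM in controls, with a small overlap. A ratio of this kind shows that the transcripts changed unequally within a library and not which of them changed per cell. Of 7 microglial markers 6 were called higher at 4 weeks and 7 at 4.5 weeks, when 20.1% and 33.3% of all genes were. These markers summed to 3396 to 3681 CPM in cords labelled cKO, against 322 to 331 CPM in controls at 4.5 weeks. At 4 weeks they summed to 673 to 940 CPM in cords labelled cKO, against 330 to 334 CPM in controls. Markers of oligodendrocytes, the cells in which Plp-CreER chiefly acts, were lower too, 7 of 7 at both times. They summed to 13291 to 18092 CPM in cords labelled cKO, against 31023 to 33429 CPM in controls at 4 weeks, and to 9561 to 10432 CPM, against 28292 to 28687 CPM, at 4.5 weeks. The part of these shifts in the results for the 10 genes was not tested.

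**Figure D3:**
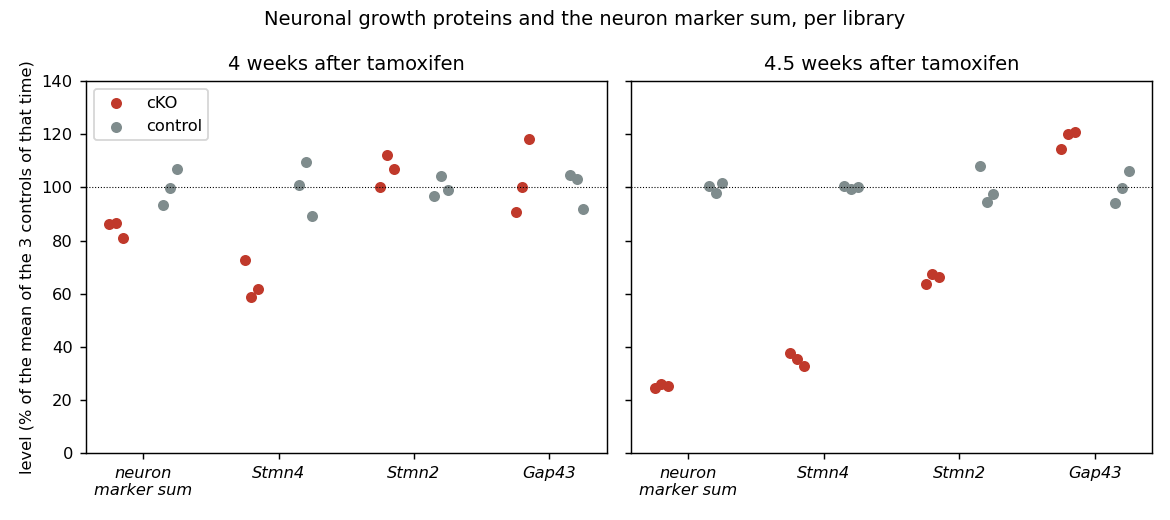
Sum of 13 neuron markers and levels of Stmn4, Stmn2 and Gap43 in each library as a percentage of the mean of the 3 controls of that time (vertical axis), at 4 weeks (left) and 4.5 weeks (right), in cords labelled cKO (red) and controls (grey). At 4.5 weeks the marker sum averages 3669 CPM in cords labelled cKO against 14443 CPM in controls, Stmn4 and Stmn2 lie between it and the controls, and Gap43 lies above the controls.

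Other genes of the injury response were read from lists, which were also chosen with earlier results of these data known. Among 17 AP-1, ATF and CEBP factors, relatives and dimer partners of Atf3 and Jun, 13 were higher and 1 lower at 4 weeks (82.4% called, median log2 fold change 1.25), and 14 were higher and 1 lower at 4.5 weeks (88.2% called, median 1.58). Over all genes 37.2% and 65.9% were called. Cebpb, a leucine zipper factor of inflammation and of sensory neuron injury, held 17.3, 20.6 and 24.2 CPM in cords labelled cKO, against 4.57, 5.14 and 5.07 CPM in controls at 4 weeks (2.07 ± 0.12, adjusted p 1.5e-07), and rose by 3.40 ± 0.13 at 4.5 weeks (adjusted p 4.5e-10). Atf2, which is constitutive in most cells, was the gene called lower at both times (-0.17 and -0.43, adjusted p 0.034 and 2.1e-05). Fosl1 is a Fos relative that pairs with Jun, and it was picked for mention once its values were known. It held 6.39, 23.3 and 21.5 CPM in cords labelled cKO, against 0.370, 0.0923 and 0.0256 CPM in controls at 4 weeks. At 4.5 weeks Fosl1 held 9.91, 8.98 and 8.92 CPM in cords labelled cKO, against 0.1004, 0.259 and 0.0895 CPM in controls, and the difference between the times was not called (-0.69 ± 1.1, adjusted p 0.64).

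The genes listed for DLK and JNK axon damage signalling were mostly lower. The list joins kinases with scaffolds, the phosphatases Dusp8 and Dusp16, and Sarm1 and Nmnat2, so its counts do not measure signalling to Jun. Of the 14 listed genes, 1 (Map2k7) was higher and 10 were lower at 4 weeks, with a median log2 fold change of -0.23. At 4.5 weeks 13 were lower and 0 higher, with a median of -0.97. The share called was 78.6% at 4 weeks, against 37.2% of all genes, and 92.9% at 4.5 weeks, against 65.9%. Mapk10, the neuronal JNK, held 81.9, 95.1 and 91.4 CPM in cords labelled cKO, against 268, 269 and 295 CPM in controls at 4.5 weeks (-1.63 ± 0.074, adjusted p 1.6e-09), and Mapk8ip2, a JNK scaffold, changed by -1.23 ± 0.066 (adjusted p 6e-09). The effect was called lower at 4.5 than at 4 weeks for 12 of the 14, as it was for 21.9% of all genes. The count of 11 called at 4 weeks depended on settings: it was 4 with library totals only and 3 with a term for sex. Leaving out 1 library of that time gave 6 for control library 3, 4 for cKO library 2 and 6 for cKO library 3.

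Of 20 factors and signals of the growth state 9 were higher and 1, the cytokine receptor chain Il6st, lower at 4 weeks, with a median log2 fold change of 0.22, and 11 were higher and 0 lower at 4.5 weeks, with a median of 0.67. The share called was 50% at 4 weeks, against 37.2% of all genes, and 55% at 4.5 weeks, below the 65.9% of all genes. Tnfrsf12a, the TWEAK receptor, rose by 1.28 ± 0.14 at 4 weeks (adjusted p 2.8e-05). Sox4, the SoxC relative of Sox11, held 137, 104 and 114 CPM in cords labelled cKO, against 14.99, 17.7 and 14.2 CPM in controls at 4.5 weeks (2.92 ± 0.15, adjusted p 4.8e-09), a rise that exceeded its rise at 4 weeks by 2.27 ± 0.21 (adjusted p 4.1e-06). Sox4 is also a gene of immature oligodendrocytes, and the listed progenitor markers summed to 2286 to 2697 CPM in cords labelled cKO, against 1087 to 1136 CPM in controls at 4.5 weeks. The part of those cells in the rise of Sox4, and in that of Sox11 at 4.5 weeks, was not tested.

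Of 22 growth cone and tubulin genes, 2 were higher and 10 lower at 4 weeks, with a median log2 fold change of -0.20, and 6 were higher and 13 lower at 4.5 weeks, with a median of -0.63. Of the list 54.5% were called at 4 weeks, against 37.2% of all genes, and 86.4% at 4.5 weeks, against 65.9%. With a term for sex the 12 calls of 4 weeks became 7. Stmn3, the relative of Stmn2 and Stmn4 that was not called at 4 weeks, held 185, 215 and 207 CPM in cords labelled cKO, against 527, 524 and 574 CPM in controls at 4.5 weeks (-1.42 ± 0.073, adjusted p 4.5e-09). Fez1, a kinesin adaptor of axonal transport, held 122, 131 and 129 CPM in cords labelled cKO, against 349, 347 and 354 CPM in controls (-1.46 ± 0.062, adjusted p 1e-09). The higher genes included Marcks, an actin-regulating substrate of protein kinase C that is also abundant in microglia, at 502, 448 and 467 CPM in cords labelled cKO, against 96.3, 100.3 and 94.2 CPM in controls at 4.5 weeks (2.28 ± 0.10, adjusted p 1.5e-09).

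Of 19 other genes induced in injured neurons, 10 were higher and 1, Flrt3, lower at 4 weeks (median log2 fold change 0.84), and 10 were higher and 3 (Sez6l, Flrt3 and Srxn1) lower at 4.5 weeks (median 1.26). These shares, 57.9% and 68.4%, stand beside 37.2% and 65.9% of all genes, so that at 4.5 weeks calls were about as frequent as among all genes. Plaur, the urokinase receptor, held 23.8, 24.5 and 26.1 CPM in cords labelled cKO, against 0.828, 0.622 and 0.627 CPM in controls at 4.5 weeks (5.16 ± 0.31, adjusted p 1.6e-08). Csf1, the microglial growth factor that injured sensory and motor neurons release, held 245, 257 and 222 CPM in cords labelled cKO, against 73.1, 70.1 and 64.4 CPM in controls (1.80 ± 0.11, adjusted p 1.7e-08). Srxn1, an antioxidant enzyme, was higher at 4 weeks (0.84 ± 0.072, adjusted p 3e-06) and lower at 4.5 weeks (-0.35 ± 0.072, adjusted p 0.00093), and the difference was called (-1.19 ± 0.10, adjusted p 2.5e-06).

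**Figure D4:**
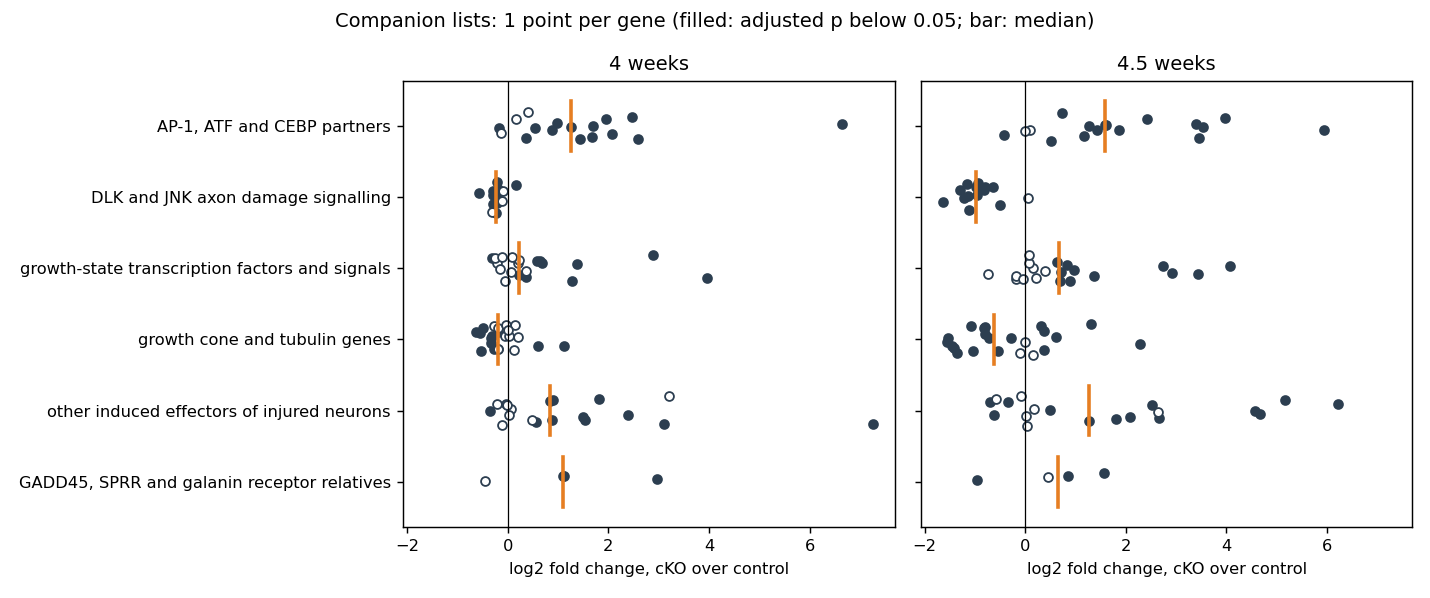
Log2 fold change, cKO over control (horizontal axis), of every tested gene of 6 lists at 4 weeks (left) and 4.5 weeks (right); filled points passed an adjusted p of 0.05 and the orange bar is the list's median. The AP-1, ATF and CEBP list has a median of 1.25 at 4 weeks and 1.58 at 4.5 weeks, and the DLK and JNK list -0.23 and -0.97.

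Among the cords labelled cKO at 4 weeks, library 1 had the lowest level in 8 of the 10 genes, all except Gal and Stmn4, and its Stmn4 level was the highest of the 3. The same library had the smallest sum of microglial markers, 673 CPM against 940 and 931 CPM in libraries 2 and 3, and the largest sum of oligodendrocyte markers, 18092 CPM against 13291 and 14826 CPM. Cdkn1a, the p53 target that arrests the cell cycle, also chosen with its values known, did not follow this order, at 792, 753 and 751 CPM in libraries 1, 2 and 3. At 4.5 weeks the cords labelled cKO varied little in most of these genes: the SD over the 3 was 0.18 CPM on a mean of 9.86 CPM for Gal, 1.36 on 33.5 CPM for Gadd45a and 0.33 on 14.4 CPM for Sox11, and relative to the mean it was widest for Sprr1a (11.5 on 49.7 CPM) and Atf3 (13.4 on 59.4 CPM).

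For each gene, the pair of genes with the most similar profile over the 12 libraries was found from the root mean square difference of log2 CPM, each gene centred on its own mean. For Atf3 these were Slc15a3 and Cd72 (0.42 each, against an SD of 2.31 for Atf3 itself). For Klf6 they were Sowahc and Pik3cd (0.079 and 0.099, against 0.70), and for Gadd45a they were Sertad1 and Ccnd1 (0.14 and 0.16, against 0.82). Stmn4 was nearest to Tmem151a and Fez1 (0.085 and 0.10, against 0.67), and Stmn2 to Nop56 and Pcbp3 (0.066 and 0.068, against 0.28). Sprr1a had no close neighbour, the nearest genes, Lyz2 and Tmem106a, lying 1.12 and 1.18 away, against 2.60 for Sprr1a itself.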

How the data were processed

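Messenger RNA of 12 mouse spinal cords (4 groups of 3 animals) was sequenced from TruSeq v2 libraries, per the labels. That kit does not mark strand, so reads of overlapping or antisense genes cannot be told apart. The authors deposited estimated counts per gene, 1 table for each time, unscaled. The submitters' processing notes name STAR, RSEM and the mm39 build, without versions, and the annotation release is not given in the sources used here. After rounding, the deposited estimated counts were fitted with edgeR 4.0.16 (R 4.3.3): filterByExpr by group, TMM scaling, 1 model with a mean per group over all 12 libraries, and the quasi-likelihood F test for cKO over control at each time, the difference of those effects, and control at 4.5 over control at 4 weeks. The code was tested on simulated data. The 10 genes and all lists were chosen with earlier results of these data known. From each list, at most 2 called genes in each direction and comparison, those with the smallest p, could be named. Alternatives were other scalings and filters, DESeq2 1.42.0, limma 3.58.1, each time alone, a replicate block, a sex term and each library left out.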

Additional observations from a re-analysis of the deposited data

Results flagged for a closer look

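For 6 of the 10 genes the effect at 4.5 weeks differed from that at 4 weeks in the edgeR test of the difference itself, where 40.7% of all genes tested did. The difference, 4.5 minus 4 weeks on the log2 scale, was 2.19 for Atf3, 1.13 for Klf6, 3.68 for Sprr1a and 1.44 for Gal (adjusted p 0.02, 1.3e-05, 0.043 and 0.0018). It was -0.69 for Stmn2 and -0.87 for Stmn4 (adjusted p 7.5e-05 and 0.00013). The Stmn2 effect was 0.09 at 4 weeks, where it was not called, and -0.60 at 4.5 weeks.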

How the results depend on the processing

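Over 23 settings for each comparison within a time and 22 for the others, the values of single genes kept their side of the threshold in 842 cases, lost a call in 46 and gained a call in 12, and no called value changed sign. Same-numbered libraries did not deviate together (r -0.165 to 0.057), so the numbers do not pair them. With a replicate block 5 of the 10 genes were called at 4 weeks and 9 at 4.5 weeks, Sox11 (0.40, adjusted p 0.097) and Gap43 (0.25, adjusted p 0.053) being lost, and the block changed no other call among them. With a sex term, which at 4 weeks rests on 1 cord labelled cKO without Xist, 4548 genes were called at 4 weeks in place of 7179. The comparison of the control groups, in which sex by Xist coincides with time, was unstable. It held 3227 calls, 0 with a sex term in edgeR (1999 at an unadjusted p below 0.05, and 3985 by DESeq2 without that term) and 390 without control libraries 1 and 2 of 4.5 weeks. Leaving out 1 library gave 1313 to 3773. Among the 10 genes it held 1 call, 3 with library totals only, 2 with upper quartile scaling, 2 with DESeq2, 0 with a sex term (0 at an unadjusted p below 0.05), 0 without control libraries 1 and 2 of 4.5 weeks and 0 to 3 with 1 library left out. Of the genes called between control groups 56.9% were higher at 4.5 weeks, 44.9% with library totals only and 45.7% with upper quartile scaling. The cause was not tested. Of 368 list counts 6 moved by more than 1.5 times. Levels near 0.1 CPM rest on a few counts.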
